A study of Mus musculus with 2 samples.

Results

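The genes described are 9 that are used to recognise the transitional state of alveolar epithelium, the cell state between the alveolar type II (AT2) cell and the alveolar type I (AT1) cell: Krt7, Krt8, Krt18, Krt19, Cldn4, Sfn, Lgals3, Cdkn1a and Sprr1a. They were taken by their symbols, 9 of the 32285 genes in the feature table, and all 9 were found. Their levels were measured in 2 lung sections of female Balb/c mice, listed as 6 to 8 weeks old, by Visium, a slide whose barcoded spots capture the RNA of a small patch of tissue. The control lung came from a mouse that received no treatment. The metastatic lung came from a mouse that received 1000000 4T1 cells, a Balb/c mammary carcinoma line, in the mammary fat pad (the m.f.p. model) and was taken after 21 to 23 days. Each condition is 1 section of 1 lung, so the tumour, the animal, the section and the library cannot be told apart between the conditions, and no test across animals could be made. A spot holds several cells, which in these tissues can be epithelial, endothelial, mesenchymal and immune cells together.

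AT2 cells make surfactant and act as progenitors of the alveolus, while AT1 cells are the thin cells across which gas is exchanged. After lung injury, AT2 cells that differentiate into AT1 cells pass through a state with high Krt8 and Krt18, tight-junction and cell-cycle-arrest genes, and low AT2 genes, before AT1 genes come up. The same keratins are also part of the cytoskeleton of airway epithelium, mesothelium and carcinoma cells, galectin-3 is abundant in macrophages, and Cdkn1a is a target of p53 in many cell types, so no single gene of the set marks this state alone.

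Keratin filaments are built from pairs of a type II and a type I keratin, and Krt8 and Krt7 are type II partners of the type I keratins Krt18 and Krt19. On the GRCm38.p6 assembly Krt7 lies at chr15:101412403-101427806, Krt8 at chr15:101996711-102004342 and Krt18 at chr15:102028216-102032026, and Krt19 lies on chromosome 11. Krt8 and Krt18 are transcribed away from each other with 23873 bases between them, while 568904 bases separate Krt7 from Krt8. Because Krt8 and Krt18 on one side and Krt7 on the other differed in the sections, the 250 bases before the RefSeq start of these 3 neighbouring genes are shown, 5′ to 3′ in the direction of transcription (Krt8: chr15:102004343-102004592, minus strand; Krt18: chr15:102027966-102028215, plus strand; Krt7: chr15:101412153-101412402, plus strand). Capitals mark matches, on either strand, to 7 short motifs: the TATA box TATAAA, the GC box GGGCGG, the AP-1 motif TGANTCA, the CCAAT box CCAAT, the ETS motif CCGGAA, the TEAD motif GGAATG and the KLF motif CACCC.

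Krt8: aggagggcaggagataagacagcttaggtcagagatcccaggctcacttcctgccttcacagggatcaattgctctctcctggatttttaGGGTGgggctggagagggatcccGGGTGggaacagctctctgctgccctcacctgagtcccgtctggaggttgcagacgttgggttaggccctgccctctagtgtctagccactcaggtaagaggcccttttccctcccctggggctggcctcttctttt
Krt18: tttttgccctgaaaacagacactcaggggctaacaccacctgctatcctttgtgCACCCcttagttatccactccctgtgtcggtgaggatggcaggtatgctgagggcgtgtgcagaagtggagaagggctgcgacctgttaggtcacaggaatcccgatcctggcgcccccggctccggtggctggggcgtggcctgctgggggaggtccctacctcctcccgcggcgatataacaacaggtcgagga
Krt7: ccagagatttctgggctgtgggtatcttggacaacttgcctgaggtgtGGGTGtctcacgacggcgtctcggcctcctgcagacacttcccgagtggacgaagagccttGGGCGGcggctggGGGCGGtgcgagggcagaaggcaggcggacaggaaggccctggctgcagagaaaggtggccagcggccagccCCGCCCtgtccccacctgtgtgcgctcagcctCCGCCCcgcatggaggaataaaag

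The GC content of these stretches was 58% for Krt8, 60.4% for Krt18 and 66% for Krt7. The Krt7 stretch held 4 GC boxes and 1 KLF motif, whereas Krt8 held 2 KLF motifs and Krt18 held 1. The GC box occurred in 32.7% and the KLF motif in 52.0% of 32851 promoter windows of all genes, so such matches are common. A match is only a match of letters, and none of the 3 stretches held TATAAA or TGANTCA.

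The control section had 1888 spots under tissue with 20329126 counts of unique molecular identifiers and the metastatic section 1110 spots with 14657881 counts, with a median per spot of 9643.5 and 11334.5. Spots were classed by marker genes fixed in lists: 1538, 240 and 110 control spots were alveolar, airway and mesothelial, and 985, 33, 30 and 62 metastatic spots were alveolar, airway, mesothelial and tumour. A tumour spot had a summed level of Csn3, Etv4 and Mmp3 of at least 1.95 counts per 10,000 and a neighbour of the same kind, and no control spot reached this level. AT2 markers summed to 350 counts per 10,000 in control alveolar spots and 26.8 in tumour spots, and AT1 markers to 74.6 and 4.92. Of the tumour spots, 54 formed 1 group at the top edge of the tissue, 6 lay in 2 small groups 173 µm from it, and 2 formed an isolated pair, 1732 µm away, that held no count of Csn3. The other carcinoma markers listed (Epcam, Cdh1 and others) summed to 0.811 counts per 10,000 in tumour spots and 4.33 in far alveolar spots, and mesothelial markers to 1.34 and 0.515, so tumour spots are named by the 3 genes alone and their cells were not identified further. Levels are given as counts per 10,000 counts of all genes with the exact 95% Poisson interval, and ratios carry an exact 95% binomial interval; both cover counting error only. A ratio was called higher at 1.5 or more, and lower at 0.667 or less, where its interval excluded 1 and both groups together held at least 20 counts.

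The counts per 10,000 depend on a few very abundant genes. Scgb1a1, the main secreted protein of club cells, took 10.7% of all counts in control alveolar spots, 22% in alveolar spots over 500 µm from tumour spots, 0.403% within 150 µm and 0.244% in tumour spots. The main ratios of the members, and any whose call changes, are therefore given a second time with the haemoglobin, mitochondrial, surfactant, secretoglobin and immunoglobulin genes (439 genes) left out of the total, called the trimmed total. This moved the median log2 ratio of all genes between near and far alveolar spots from 0.35 to -0.11, and between tumour and far spots from 0.14 to -0.36. Ratios of a pair of genes within the same spots do not depend on the total and are given further on.

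In the control lung Krt7 was the most abundant member per captured molecule, and the genes that are most particular to the transitional state were nearly absent. Krt7, which AT1 cells carry, reached 4.88 counts per 10,000 (4.77 to 4.99) in alveolar spots, and the other keratins were lower: 1.58 (1.51 to 1.64) for Krt19, 1.5 (1.44 to 1.56) for Krt8 and 1.05 (1.00 to 1.11) for Krt18. Lgals3, encoding galectin-3, reached 1.61 (1.55 to 1.68). The interval of Krt19 overlapped those of Lgals3 and Krt8, so only Krt7 above them and Krt18 below them stood apart in this order. Cdkn1a, the cell cycle inhibitor p21, was at 0.259 (0.234 to 0.286). Sfn, the 14-3-3 sigma protein, was at 0.0643 with 100 counts, and Cldn4, a tight-junction claudin, at 0.0264 with 41 counts. Sprr1a, a small proline-rich protein of stressed epithelia, had 12 counts in 5 of 1538 alveolar spots. Comparing genes in this way compares captured 3′ ends and not lengths, and processed copies of Krt8 and Krt18 elsewhere in the genome make their counts less certain than those of the other members.

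Counted per spot, Krt7 was found nearly everywhere and Krt8 in most spots. The median control alveolar spot held 4.72 counts per 10,000 of Krt7 (25th percentile 2.5, highest spot 43.9), 1.26 of Krt19, 1.20 of Krt8 and 0.763 of Krt18. After each spot was thinned to 5000 counts, 85.4% of 1237 control alveolar spots held a count of Krt7, 52.6% of Krt19, 49.4% of Krt8, 39.6% of Krt18, 56.0% of Lgals3 and 12.2% of Cdkn1a, and 301 shallower spots were left out. Before thinning the shares were 92.1%, 69.5%, 66.9%, 59.0%, 71.0% and 21.6%. Krt8 and Krt18 shared 657 spots, which is 63.8% of the 1029 spots with Krt8, little above the 59.0% of all alveolar spots that held Krt18.

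Airway spots of the control lung held more Cldn4, Krt8 and Krt18 and less Krt7 and Lgals3 than alveolar spots with all genes in the total. Of the 8 members with enough counts, 3 were higher in airway than in alveolar spots, where 7.01% of 14185 genes were, and 2 were lower, where 44.9% of genes were. Cldn4 was at 0.148 counts per 10,000 in airway spots, a ratio of 5.62 (3.68 to 8.65), and 39 of 240 airway spots held a count against 35 of 1538 alveolar spots. Krt8 was at 2.60 with a ratio of 1.73 (1.61 to 1.87), and Krt18 at 1.62 with a ratio of 1.53 (1.39 to 1.69). Krt7 at 2.53 and Lgals3 at 0.908 were the lower members, with ratios of 0.518 (0.483 to 0.555) and 0.563 (0.501 to 0.632). With the trimmed total 5 members were higher (11.7% of genes), Cldn4, Krt8, Krt18, Krt19 and Sfn with ratios of 7.87, 2.43, 2.15, 1.69 and 2.03, and none was lower (12.6% of genes), since Krt7 stood at 0.725 and Lgals3 at 0.789. Mesothelial spots, on the pleura, held 2.82 of Krt19, 2.28 of Krt8, 5.92 of Krt7 and 2.42 of Lgals3, with ratios to alveolar spots of 1.79, 1.52, 1.21 and 1.5, or 1.64, 1.39, 1.11 and 1.38 with the trimmed total. Alveolar spots also held club cell RNA, with the club markers at 1098 counts per 10,000 against 4090 in airway spots, so the alveolar levels include RNA of airway cells. In spots, fewer cells of a type and less RNA per cell cannot be told apart.

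**Figure D1:**
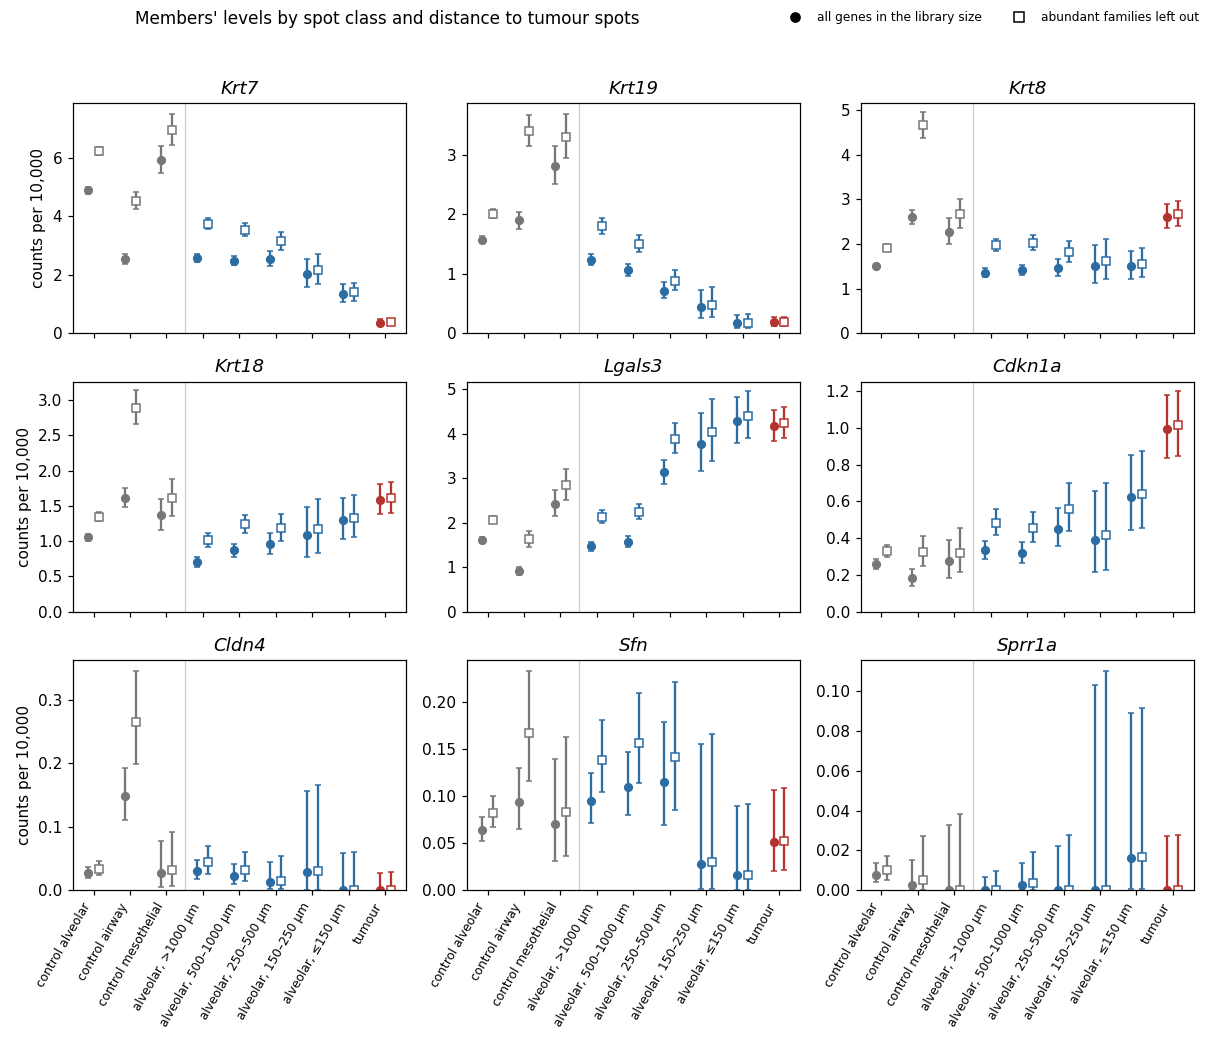
Level of each of the 9 genes (counts per 10,000, linear axis from 0) in control spots by class (grey), in metastatic alveolar spots by distance to the nearest tumour spot (blue) and in tumour spots (red), as circles with all genes in the total and squares with the abundant families left out, bars being exact 95% Poisson intervals. With all genes in the total, Krt7 and Krt19 decline to 0.369 and 0.184 in tumour spots, and Lgals3 climbs from 1.47 over 1000 µm away to 4.28 within 150 µm. Krt8 in alveolar spots then stays between 1.36 and 1.52 at every distance. With the abundant families left out, Krt8 is at 1.98 over 1000 µm away and 1.56 within 150 µm.

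The tumour spots differed from far alveolar spots in the balance of their keratins. Of the 8 members compared with far alveolar spots (over 500 µm from any tumour spot, 770 spots), Krt8, Krt18, Lgals3 and Cdkn1a were higher, where 29.8% of 13169 genes were, and Krt7 and Krt19 were lower, where 22.1% were. Krt8 was at 2.62 counts per 10,000 (2.35 to 2.90) in tumour spots and 1.38 (1.31 to 1.46) in far spots, a ratio of 1.89 (1.68 to 2.13). Krt18 was at 1.58 against 0.770, a ratio of 2.06 (1.76 to 2.40). Spot by spot, 61 of 62 tumour spots held Krt8 and 51 held Krt18, and all 51 of the latter also held Krt8.

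Krt7 and Krt19 were low in the same spots. Krt7 was at 0.369 (0.274 to 0.486) against 2.53 (2.43 to 2.63) in far spots, 6.87-fold lower, and its median tumour spot held no count. Krt19 was at 0.184 (0.119 to 0.272) against 1.16, 6.31-fold lower. After thinning to 5000 counts, 14.8% of 61 tumour spots held Krt7 and 8.20% held Krt19, against 72.3% and 43.7% of far spots, while Krt8 was found in 62.3% against 45.7%, and 1 tumour spot and 52 far spots were left out as too shallow. Unthinned, Krt7 was found in 35.5% of tumour and 90.1% of far spots, Krt19 in 25.8% and 67.5%, and Krt8 in 98.4% and 70.9%. AT1 markers were 10 of 10 lower in tumour spots and their summed level was at 0.0960 of that in far spots, below the fall of Krt7.

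Lgals3 and Cdkn1a were both higher in tumour spots on either total. Lgals3 was at 4.16 (3.83 to 4.52) against 1.51, a ratio of 2.75 (2.5 to 3.04), with a median of 3.96 and a highest spot of 10.7. Cdkn1a was at 0.995 (0.834 to 1.18) against 0.327, a ratio of 3.04 (2.47 to 3.73), and 77.4% of tumour spots held a count against 33.1% of far spots. With the trimmed total 2 members were higher (16.7% of genes), Lgals3 with a ratio of 1.94 (1.76 to 2.14) and Cdkn1a with 2.15 (1.74 to 2.63), while Krt8 stood at 1.33 and Krt18 at 1.45. The lower members were then 4 (36.5% of genes), Krt7 at 0.103, Krt19 at 0.112, Sfn at 0.360 and Cldn4 with no count. Macrophage markers, 7 of 8 higher and 1 lower, summed to 16.9 counts per 10,000 in tumour spots and 5.69 in far spots, and their part in the Lgals3 level was not tested.

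The transitional genes of low abundance were not found in greater amounts in tumour spots. Cldn4 had no count in 62 spots, which allows up to 0.0221 counts per 10,000 (3 counts), close to the 0.0266 of far spots, so a difference was not detectable at this depth with all genes in the total. Sfn had 7 counts, at 0.0516 against 0.101, a ratio of 0.509 (0.200 to 1.09). Sprr1a had no count in tumour spots and 1 count in 770 far spots. Of the 7 Sfn counts, 3 came from the isolated pair of spots, and the largest group held 4, a ratio to far spots of 0.313 (0.0836 to 0.827).

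**Figure D2:**
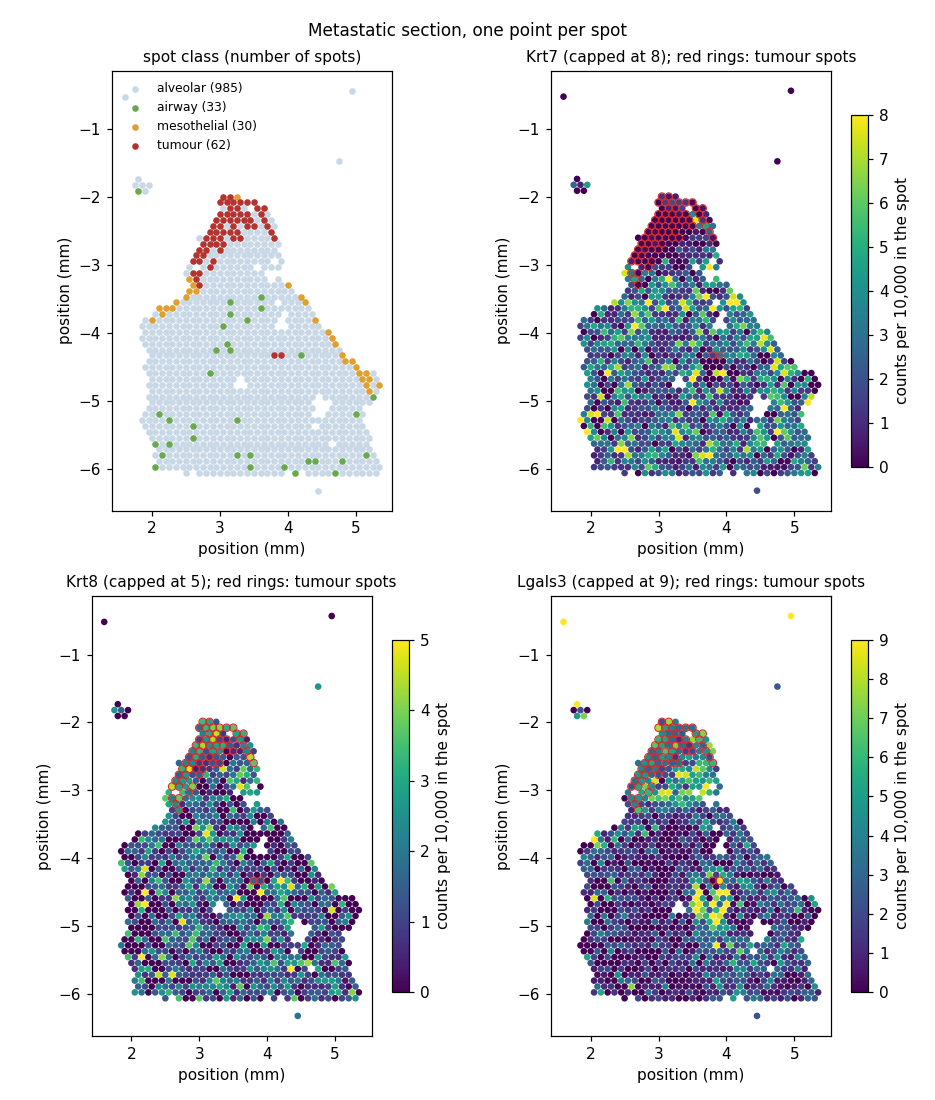
Metastatic section with 1 point per spot at its position in mm, coloured by spot class and by the level of Krt7, Krt8 and Lgals3 (counts per 10,000 in the spot, colour capped as stated, tumour spots ringed in red). Krt7 is low in the 54-spot tumour group at the top edge, and Lgals3 is high around that group and in a patch beside the isolated pair of tumour spots in the lower right. Krt8 is spread over the whole section. It was counted in 61 of 62 tumour spots before thinning, and these spots were deeper than far spots.

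Around the tumour spots the members split by gene and did not move together. Among alveolar spots within 250 µm of a tumour spot (81 near spots) and over 500 µm away (770 far spots), Lgals3, Krt18 and Cdkn1a were higher near the tumour, where 30.2% of 13090 genes were, and Krt7, Krt19 and Sfn were lower, where 10.6% were. The share of members called higher is thus near that of all genes. The median log2 ratio of the 8 members was -0.26, against 0.35 over all genes. With the trimmed total only Lgals3 was still higher (13.8% of genes), Krt7, Krt19 and Sfn were lower (21.5% of genes), and the medians were -0.73 and -0.11.

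Krt8, the gene that gives the state its name, hardly differed with distance when all genes were in the total. It was at 1.52 counts per 10,000 (1.23 to 1.85) within 150 µm, 1.51 at 150 to 250 µm, 1.47 at 250 to 500 µm, 1.42 at 500 to 1000 µm and 1.36 (1.27 to 1.46) beyond. The ratio of near to far was 1.09 (0.918 to 1.3), and with the trimmed total 0.791 (0.663 to 0.937), so its sign depends on the total while neither value passed 1.5-fold. The median near spot held 1.35 and the median far spot 1.12, with highest spots of 5.47 and 9.78. The upper bound of the near to far ratio lay below the 1.89 of tumour to far spots.

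Krt18 was higher near the tumour with all genes in the total only. It was at 1.29 (1.03 to 1.61) within 150 µm, 1.09 at 150 to 250 µm, 0.958 at 250 to 500 µm, 0.869 at 500 to 1000 µm and 0.699 (0.632 to 0.771) beyond. These values pool all tumour groups. With the trimmed total, near spots of the largest group held 1.43 (1.14 to 1.77) of Krt18. At 250 to 500 µm from that group it was at 1.57 (1.18 to 2.06). Around the isolated pair the 2 values were 1.41 and 1.28, and around the 2 small groups 0.725 and 0.685. The near to far ratio was 1.58 (1.29 to 1.92), and with the trimmed total it was 1.14 (0.936 to 1.39) and no longer called. Between 500 and 1000 µm and beyond 1000 µm, both in the far group, the ratio was 1.24 (1.08 to 1.44). Thinned shares of spots with a count were 45.8% near and 30.2% far for Krt18, and 48.6% and 45.7% for Krt8, with 9 near and 52 far spots left out, against 65.4% and 51.9% for Krt18 and 76.5% and 70.9% for Krt8 unthinned.

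With the spots around all tumour groups pooled, Krt19 and Krt7 declined toward the tumour in steps of different reach. Krt19 was at 1.24 (1.15 to 1.34) beyond 1000 µm, 1.06 at 500 to 1000 µm, 0.717 at 250 to 500 µm, 0.447 at 150 to 250 µm and 0.176 (0.0877 to 0.314) within 150 µm, the level of the tumour spots themselves. Its ratio to far spots was already 0.617 (0.506 to 0.745) at 250 to 500 µm (0.529 with the trimmed total), and it was 0.236 (0.155 to 0.345) over all near spots. Krt7 was at 2.58 beyond 1000 µm, 2.47 at 500 to 1000 µm, 2.54 at 250 to 500 µm, 2.01 (1.57 to 2.53) at 150 to 250 µm and 1.36 (1.08 to 1.68) within 150 µm. Its ratio to far spots was 0.536 (0.427 to 0.665) within 150 µm and 0.795 (0.620 to 1.00) at 150 to 250 µm, and only the first was called. On the trimmed total these were 0.382 (0.304 to 0.474) and 0.589 (0.460 to 0.745), both called. The reach of Krt7 differed by tumour group. At 250 to 500 µm from the largest group (23 spots) it was at 1.85 (1.41 to 2.37) with the trimmed total, against 3.65 in far spots. At the same distance it was at 3.19 (2.76 to 3.66) around the isolated pair (75 spots) and 4.21 (3.59 to 4.92) around the 2 small groups (36 spots). The near to far ratios with the trimmed total were 0.171 (0.112 to 0.25) for Krt19 and 0.455 (0.385 to 0.535) for Krt7, against 0.630 (0.533 to 0.741) for Krt7 with all genes. Beside Krt19, the summed ciliated markers had a ratio of 0.170 and the club markers 0.0648, and beside Krt7 the summed AT1 markers had 0.363.

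Lgals3 was higher up to 500 µm from the tumour. It was at 4.28 (3.78 to 4.82) within 150 µm, 3.77 at 150 to 250 µm, 3.13 (2.87 to 3.42) at 250 to 500 µm, 1.57 at 500 to 1000 µm and 1.47 (1.37 to 1.57) beyond, against 1.61 in control alveolar spots. These values pool all tumour groups. With the trimmed total, near spots of the largest group held 4.55 (4.01 to 5.13) of Lgals3. At 250 to 500 µm from that group (23 spots) it was at 5.57 (4.79 to 6.44), so it did not decline over this distance. Around the isolated pair the 2 values were 4.31 and 3.28, and around the 2 small groups 3.48 and 3.40. The near to far ratio was 2.71 (2.42 to 3.03), or 1.96 (1.75 to 2.19) with the trimmed total, and tumour spots did not exceed near spots, with a ratio of 1.02 (0.893 to 1.16), or 0.993 with the trimmed total. The median near spot held 3.91 and the median far spot 1.32, and 92.6% of near spots held a count against 75.1% of far spots. Macrophage markers had a similar course, with 8 of 8 higher near the tumour and summed levels of 18.1 near and 5.69 far, and Marco, a scavenger receptor of alveolar macrophages, had a ratio of 5.29. Across the 985 alveolar spots of this section Lgals3 had a Pearson r of 0.50 with the macrophage list, and across 1538 control alveolar spots 0.10, a description over spots that share a library. The part of macrophages in the Lgals3 gradient was not tested.

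Cdkn1a was higher close to the tumour with all genes in the total only. It was at 0.623 (0.443 to 0.852) within 150 µm, 0.391 (0.214 to 0.657) at 150 to 250 µm, 0.452 at 250 to 500 µm, 0.319 at 500 to 1000 µm and 0.333 beyond. These values pool all tumour groups. With the trimmed total, near spots of the largest group held 0.697 (0.498 to 0.949) of Cdkn1a. At 250 to 500 µm from that group it was at 0.727 (0.465 to 1.08). Around the isolated pair the 2 values were 0.185 and 0.492, and around the 2 small groups 0.484 and 0.527. The near to far ratio was 1.65 (1.21 to 2.21) with 53 and 320 counts, and with the trimmed total 1.19 (0.872 to 1.59). Tumour spots held more than near spots, with a ratio of 1.85 (1.33 to 2.59), or 1.80 (1.3 to 2.53) with the trimmed total.

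Cldn4, Sfn and Sprr1a gave few counts near the tumour. Cldn4 had 1 count in 81 near spots and 26 in 770 far spots, a ratio of 0.382 (0.00932 to 2.33), so no difference was detectable at this depth. Sfn had 2 counts near and 99 far, a ratio of 0.201 (0.0240 to 0.744), while at 250 to 500 µm it was at 0.115 with 19 counts. Sprr1a had 1 count near and 1 far.

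**Figure D3:**
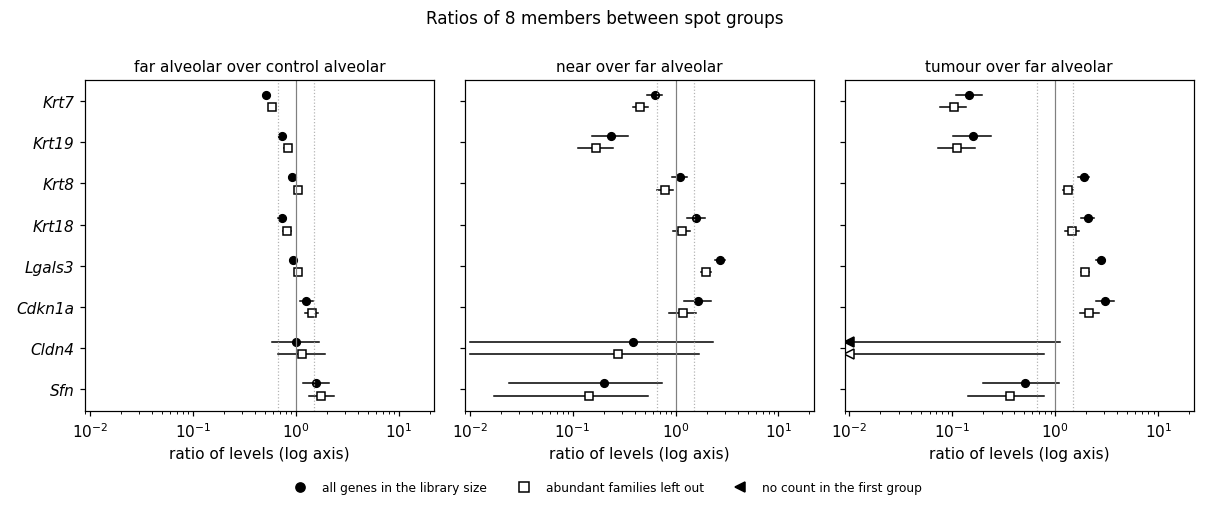
Ratio of levels (log axis) of the 8 members with enough counts, for far alveolar over control alveolar, near over far alveolar and tumour over far alveolar spots, with exact 95% intervals, as circles for all genes in the total and squares for the trimmed total, arrowheads where the first group had no count and dotted lines at 0.667 and 1.5. Only Lgals3 lies above 1.5 in both the near and tumour panels on either total, and Krt7 and Krt19 lie below 0.667 in both.

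The near spots were also taken apart by the tumour group they lay next to. Around the largest group (41 near spots) the ratios to far spots were 2.93 for Lgals3, 2.08 for Cdkn1a, 1.81 for Krt18, 1.20 for Krt8, 0.443 for Krt7 and 0.117 for Krt19. Around the isolated pair (22 near spots) Lgals3 had a ratio of 2.59 (2.00 to 3.29), Krt18 of 1.67 (1.05 to 2.52) and Krt19 of 0.480 (0.230 to 0.886), while Krt7 stood at 0.904 (0.647 to 1.23), Krt8 at 0.847 (0.523 to 1.3) and Cdkn1a had 3 counts. Set against each other directly, the near spots of the largest group held less Krt7 than those of the pair, with a ratio of 0.490 (0.327 to 0.742), and more Cdkn1a, with a ratio of 4.06 (1.29 to 20.5). The corresponding ratio of Lgals3 was 1.13 (0.869 to 1.5). With the trimmed total Krt18 was not called around either, at 1.29 (1.01 to 1.62) around the largest group and 1.27 (0.802 to 1.92) around the pair, Cdkn1a around the largest group was at 1.48 (1.03 to 2.05) and no longer called, and Krt8 around the pair was at 0.647 (0.399 to 0.993) and called lower. The 18 near spots of the 2 small groups held 15 counts of Krt18, at 0.693 counts per 10,000 (0.388 to 1.14), beside 0.770 in far spots. They held 3.33 (2.60 to 4.19) of Lgals3, 2.31 (1.71 to 3.05) of Krt7, 0.416 (0.190 to 0.789) of Krt19 and 1.39 (0.935 to 1.98) of Krt8, so around these small groups together Lgals3 was above and Krt19 below the far level, and Krt18 was not above it. On the trimmed total Krt18 was at 0.725 (0.406 to 1.20) there and at 1.11 in far spots.

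Counts of one keratin per count of another do not depend on the total. For each Krt7 count there were 0.307 Krt8 counts (0.293 to 0.322) in control alveolar spots, 0.546 (0.511 to 0.584) in far spots, 0.750 (0.517 to 1.08) at 150 to 250 µm, 1.12 (0.825 to 1.52) within 150 µm and 7.10 (5.27 to 9.75) in tumour spots. Control airway spots had 1.03, so a value near 1 occurred in the control lung as well. Krt18 per Krt19 count was 0.669 (0.628 to 0.713) in control alveolar spots and 0.662 (0.603 to 0.727) in far spots, and then 1.34 at 250 to 500 µm, 2.44 at 150 to 250 µm, 7.36 (3.91 to 15.3) within 150 µm and 8.60 (5.67 to 13.6) in tumour spots. Krt8 per Krt18 count was 1.80 (1.64 to 1.97) in far spots, 1.24 (0.97 to 1.59) in near spots and 1.65 (1.39 to 1.97) in tumour spots. Thus the keratin balance of tumour spots was approached within 150 µm for Krt18 against Krt19, but not for Krt8 against Krt7.

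Set against alveolar epithelial markers, the members behaved differently again. Per 1000 counts of the AT1 list, Krt7 had 65.4 counts in control alveolar spots, 49.5 in far spots and 85.7 in near spots, and Krt8 had 20.1, 27.0 and 81.4. Krt18 per 1000 AT1 counts was 14.1, 15.0 and 65.5, while Krt19 was 21.1, 22.7 and 14.7. Lgals3 had 21.6, 29.5 and 220. Per 1000 counts of the AT2 list without surfactant proteins, Krt7 had 155, 115 and 89.0 counts in the same order, and Krt8 had 47.8, 62.9 and 84.5. Krt18 had 33.6, 35.0 and 68.0, Krt19 had 50.2, 52.9 and 15.3, and Lgals3 had 51.4, 68.7 and 228. Krt7 in near spots was thus above far spots per AT1 count and below them per AT2 count. Near the tumour the AT1 markers themselves were lower, 10 of 10 with a summed level of 18.6 counts per 10,000 against 51.2 in far spots, so the values of Krt7 and Krt8 per AT1 count were larger near the tumour although their own levels were not called higher there.

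**Figure D4:**
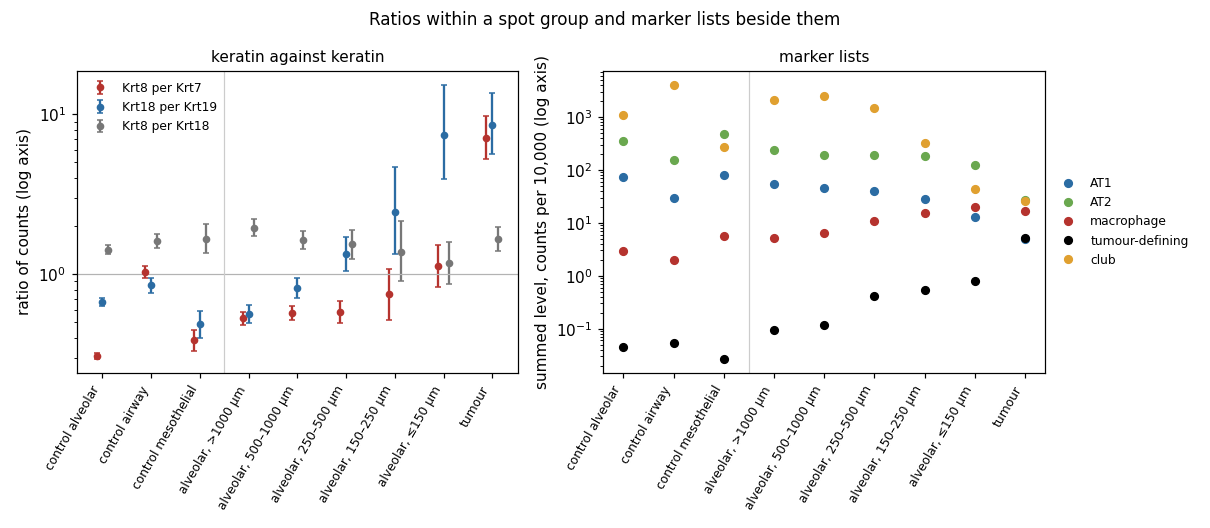
Left, counts of one keratin per count of another (log axis, with exact 95% intervals) in control spots by class, in alveolar spots by distance to the nearest tumour spot and in tumour spots; right, summed level of 5 marker lists (counts per 10,000, log axis) in the same groups. Krt18 per Krt19 moves from 0.563 beyond 1000 µm to 7.36 within 150 µm and 8.60 in tumour spots, Krt8 per Krt7 from 0.528 to 1.12 and 7.10, and AT1 and club markers fall while macrophage markers climb toward the tumour.

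The carcinoma cells are another possible source of these transcripts near the tumour. The source was not tested. The 3 tumour-defining genes give a scale for tumour-spot RNA in the spots around. The same genes set which spots were tumour and which were not, so the shares below depend in part on that rule. Csn3, a milk casein, Etv4, an ETS transcription factor, and Mmp3, a matrix metalloproteinase, summed to 5.24 counts per 10,000 in tumour spots, 0.799 within 150 µm, 0.531 at 150 to 250 µm, 0.410 at 250 to 500 µm and 0.103 in far spots. Placed between far and tumour spots on this scale, the rings would hold tumour-spot RNA at a share of 13.5%, 8.33% and 5.97%. Taken from Csn3, Mmp3 and Etv4 singly, the share over all near spots was 3.66%, 8.64% and 26.1%, so it is known only roughly.

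A mix of far and tumour levels at these shares matched some members and not others. Krt8 within 150 µm was measured at 1.52 (1.23 to 1.85), and the mix gives 1.55. The interval also holds the far level of 1.38, as it does at 150 to 250 µm and at 250 to 500 µm. The match of Krt8 therefore cannot tell the mix from an unchanged far level. Krt18 was at 1.29 (1.03 to 1.61), above the 0.881 of the mix, and at 1.09 (0.775 to 1.49) at 150 to 250 µm, where the mix gives 0.838, inside the interval. Lgals3 was at 4.28 (3.78 to 4.82) against 1.87 in the mix, and over all near spots it was at 4.10 (3.71 to 4.52), where the mix gives 1.82, or from 1.61 to 2.20 with the single-gene shares. Krt19 was at 0.176 (0.0877 to 0.314) against 1.03, and Krt7 at 1.36 (1.08 to 1.68) against 2.24, both below the mix. Cdkn1a was at 0.623 (0.443 to 0.852) against 0.418, just outside the interval, and over all near spots at 0.539 (0.404 to 0.705) against 0.405, inside it. The marker lists departed from the mix too, with AT1 markers at 13.0 against 44.9 and macrophage markers at 19.7 against 7.21, so both lists lay outside the mix as well. The mix uses all genes in the total, and none was computed with the trimmed total. With the trimmed total Krt8 within 150 µm was at 1.56 (1.26 to 1.91), below both far spots at 2.00 and tumour spots at 2.66. The match of Krt8 to a mix thus holds with all genes in the total only. Krt18 there was at 1.33 (1.06 to 1.65) with the trimmed total, between far spots at 1.11 and tumour spots at 1.61.

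**Figure D5:**
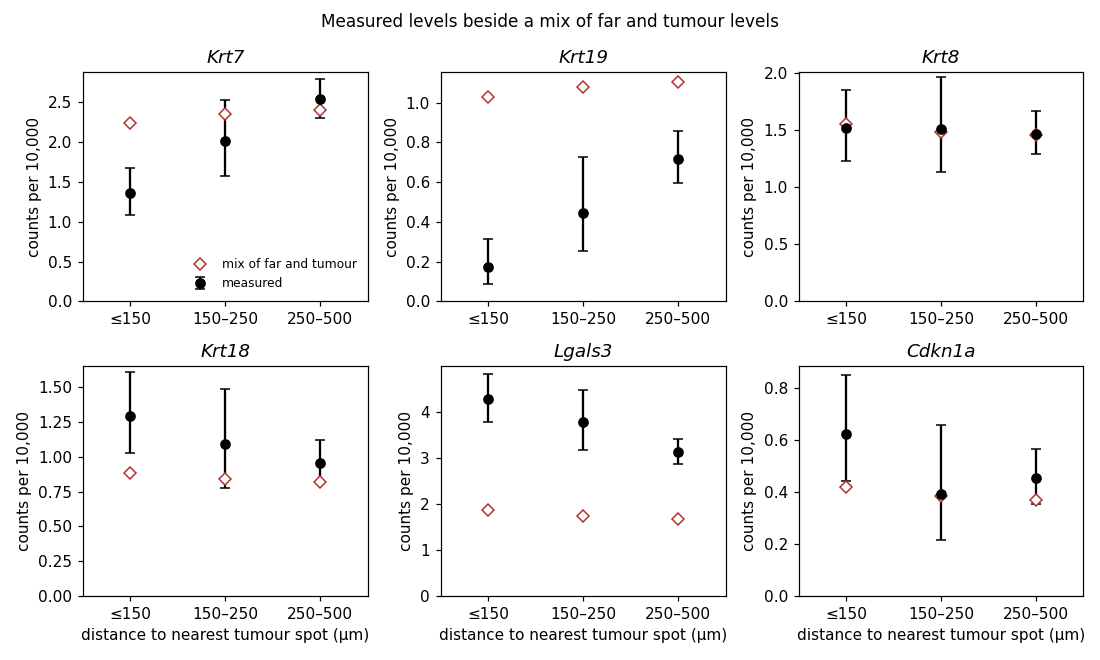
Level of 6 members (counts per 10,000, linear axis from 0) in alveolar spots at 3 distances from the nearest tumour spot in µm (black circles with exact 95% Poisson intervals), beside the level that a mix of far and tumour spots would have at a share of tumour-spot RNA set by Csn3, Etv4 and Mmp3 (red diamonds). With all genes in the total, Krt8 lies on the mix at each distance, Lgals3 lies above it (4.28 against 1.87 within 150 µm) and Krt19 below it (0.176 against 1.03). The intervals of Krt8 also hold its far level of 1.38 at each distance.

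In near spots without a single count of the 3 tumour-defining genes, with all genes in the total, Lgals3 and Krt18 were higher and Krt19 was lower. The share of all genes called was not computed for this comparison. These spots held 339597 counts in all, against 983862 over all near spots, so a difference was harder to call. Of the 81 near spots, 34 had no such count, and they were compared with the 680 far spots that also had none. Lgals3 was at 3.68 (3.06 to 4.39) against 1.36, a ratio of 2.71 (2.23 to 3.26), and 1.98 (1.63 to 2.38) with the trimmed total. Krt18 was at 1.33 (0.967 to 1.77) against 0.768, a ratio of 1.73 (1.25 to 2.34), and 1.26 (0.912 to 1.71) with the trimmed total. Krt19 had a ratio of 0.350 (0.190 to 0.589), Krt7 of 0.802 (0.622 to 1.02), Krt8 of 1.03 (0.755 to 1.37) and Cdkn1a of 1.69 (0.984 to 2.72), and Sfn had 1 count. The ratio of Krt7 on the trimmed total was 0.587 (0.455 to 0.745) and called lower, and that of Krt19 was 0.256. Near spots with and without tumour-defining counts did not pass 1.5-fold for Lgals3, whose ratio was 1.17 (0.946 to 1.46), for Krt8 at 1.11 (0.779 to 1.60) or for Krt18 at 0.879 (0.599 to 1.3). Krt7 was at 0.672 (0.485 to 0.935) in spots with such counts against those without, and with the trimmed total at 0.649 (0.468 to 0.903), which was called lower, while Krt19 stood at 0.489 (0.212 to 1.12). These genes are sparse, with a median near spot of 12304 counts in all, so a spot without such a count may still hold carcinoma cells.

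Far from the tumour, the lung of the tumour-bearing mouse differed from control lung in Krt7 and Sfn. Of the 8 members, Sfn was higher in far than in control alveolar spots, where 3.77% of 14508 genes were, and Krt7 was lower, where 12.4% were. With the trimmed total the same 2 members were called, where 5.78% and 6.77% of genes were. Krt7 was at 2.53 (2.43 to 2.63) against 4.88 (4.77 to 4.99), a ratio of 0.519 (0.496 to 0.543), or 0.586 (0.559 to 0.613) with the trimmed total. The median spot held 2.31 in far and 4.72 in control spots. The summed AT1 markers had a ratio of 0.686, or 0.774 with the trimmed total. Sfn had 99 and 100 counts, a ratio of 1.58 (1.18 to 2.10), or 1.78 (1.33 to 2.37), and it lost the call when airway spots were set by club markers or only spots over 1000 µm away were used.

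The remaining members did not pass 1.5-fold between the sections. Krt18 had a ratio of 0.731 (0.669 to 0.797), Krt19 of 0.738 (0.688 to 0.792), Krt8 of 0.923 (0.862 to 0.987), Lgals3 of 0.938 (0.879 to 1.00), Cdkn1a of 1.26 (1.09 to 1.47) and Cldn4 of 1.01 (0.593 to 1.69). On the trimmed total these stood at 0.824, 0.833, 1.04, 1.06, 1.43 and 1.14. Sprr1a had 1 count in far spots and 12 in control alveolar spots, 12 counts that came from 5 spots. Neutrophil markers were 6 of 6 higher in far spots with a summed ratio of 10.3, and club markers had 2.05.

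Other genes listed for the transitional state were described beside the members. Of 12, 6 were higher and 1 lower near the tumour with all genes in the total, where 30.2% and 10.6% of all genes were, and 3 were higher and 3 lower with the trimmed total, where 13.8% and 21.5% were. Areg, the EGF receptor ligand amphiregulin, had 21 counts near and 34 far, a ratio of 6.14 (3.38 to 10.9), and was at 0.545 counts per 10,000 in tumour spots. Fn1, fibronectin, had a ratio of 2.49 (2.30 to 2.68), Tnip3 of 4.97 (1.70 to 13.2) on 7 and 14 counts, and Sox4, a transcription factor, of 0.514 (0.284 to 0.862). In far spots against control 1 of the 12 was lower and none higher, on either total. Areg, Tnip3 and Fn1 were also higher in tumour spots, with ratios of 15.7, 7.72 and 2.85 to far spots.

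Targets of p53, the group to which Cdkn1a belongs, were listed beside it. Of 11 with enough counts, 6 were higher and 1 lower near the tumour (30.2% and 10.6% of all genes), and with the trimmed total 2 were higher and 2 lower (13.8% and 21.5%). Bax, which promotes apoptosis, had a ratio of 3.43 (3.02 to 3.90) and Aen, an apoptosis-linked nuclease, of 2.54 (1.94 to 3.29), and these stayed called with the trimmed total at 2.48 and 1.84. Mdm2, the ubiquitin ligase of p53, had 1.93 (1.5 to 2.47), and Perp, a desmosomal protein of epithelia, 0.360 (0.115 to 0.861). Of the other inhibitors of cyclin-dependent kinases, Cdkn1c had a ratio of 0.206 (0.0883 to 0.410) and Cdkn2b of 0.302 (0.12 to 0.633), and none of 6 was higher.

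The relatives of the other members are to be read against the 30.2% of all genes higher and 10.6% lower near the tumour, or 13.8% and 21.5% with the trimmed total. Among galectins 3 of 5 were higher near the tumour (2 with the trimmed total) and none was lower: Lgals1 with a ratio of 5.27 (4.94 to 5.62), Lgals3bp, the binding protein of galectin-3, with 2.80 (2.44 to 3.21), and Lgals8 with 1.58 (1.18 to 2.07). Lgals1 was at 30.6 counts per 10,000 in tumour spots, 14.6 near and 2.78 far. Claudins were 5 of 9 lower and none higher, with Cldn7 at 0.245, Cldn3 at 0.333 and the endothelial Cldn5 at 0.333, and 6 were lower with the trimmed total. Of the other keratins only 3 had enough counts: Krt80 was lower, with a ratio of 0.344 (0.252 to 0.458), Krt10 was higher with 1.61 (1.03 to 2.42), and Krt23 stood at 0.691. With the trimmed total Krt80 alone was called. Of the other 14-3-3 genes Ywhag and Ywhah were higher, 2 of 6, near the share of all genes, and none was called with the trimmed total. Basal cell markers, and small proline-rich genes other than Sprr1a, had too few counts, with 1 count of the 4 basal genes in near spots and none in tumour spots.

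Genes of TGF-beta signalling, which acts on the step from the transitional state to AT1 cells, were mixed. Of 9, 3 were higher and 2 lower near the tumour, and 1 higher and 4 lower with the trimmed total, counts to be read against 30.2% and 10.6%, and 13.8% and 21.5%, of all genes. The 3 higher genes are thus near the share of all genes. Tgfbi had a ratio of 2.92 (2.49 to 3.41), the integrin subunit Itgav of 2.00 (1.57 to 2.51), Tgfb1 of 1.67 (1.28 to 2.14) and Ccn2 of 0.580 (0.454 to 0.730). Tgfbi is also expressed by macrophages.

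Spot by spot, the members did not form a shared pattern. In control alveolar spots Krt8 and Krt18 had a Pearson r of 0.07 over 1538 spots, and in metastatic alveolar spots 0.16 over 985 spots. Krt7 went with AT1 markers, with an r of 0.58 to their summed level in control and 0.48 in metastatic alveolar spots, while Krt8 had -0.01 and -0.12. The genes most like the mean of the members in control alveolar spots, among 5100 with enough counts, were Hopx, Gprc5a, Prdx6, Ager and Spock2, with r from 0.25 to 0.29. In the metastatic section, among 3808 genes, they were Retnla, Ftl1, Gnb2, Atox1 and Micos10, with r from 0.18 to 0.20. The 2 sets held no gene in common, but each holds only the 5 genes with the highest r among 5100 and 3808 candidates. Lists this short would seldom share a gene if drawn at random, so the lack of overlap is not read as a difference between the sections. The correlations above are weak, share library and depth within a section, and rest on sparse counts, so they describe the spots and nothing more.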

How the data were processed

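The authors deposited, per section, a matrix of counts of unique molecular identifiers per gene and spot with spot positions, made with Space Ranger 1.3.1 on mm10 per the submitters' processing notes. These deposited counts of spots under tissue were used as they are. Members, gene lists, comparisons and alternatives were chosen with earlier results of these data known. The labels of single spots behind the study's own classes were not used here, so classes were rebuilt and need not match them: mesothelial spots had a summed level of mesothelial markers at or above the 95th percentile of both sections, airway spots had ciliated markers at or above the 90th percentile, each with 2 or more genes detected, and the rest was alveolar. Tumour spots had a summed level of Csn3, Etv4 and Mmp3 of at least 25% of the mean of the 20 highest spots, 2 or more of these genes detected, and at least 1 of 6 neighbours of the same kind. Distances run between spot centres at a pitch of 100 µm. Counts were summed over the spots of a group, since spots are not replicates. No spot under tissue was left out, and 858 barcodes occur in both sections because both used the same array layout. Named genes are all members, the 5 genes per section most like their mean, and up to 4 genes per list with the largest ratio of near to far. Python 3.11.15, numpy 2.4.6, scipy 1.17.1 and pandas 2.3.3 were used, and the interval method was tested on simulated data. Sequences and coordinates are RefSeq's on GRCm38.p6, whose gene entries were matched by symbol, 9 of 9, and the 250 bases before each start were searched for motifs, in all genes alike. Alternatives tried were other cutoffs of spot class, distance, fold and count, the trimmed total, means of per-spot levels and thinning, with 3 combinations added after the data were seen.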

Additional observations from a re-analysis of the deposited data

How the results depend on the processing

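Leaving the abundant families out of the total reduced the members higher in tumour than far spots from 4 to 2 and raised those lower from 2 to 4, and near the tumour it left 1 member higher in place of 3. The shares of all genes called moved likewise, from 29.8% to 16.7%, from 22.1% to 36.5% and from 30.2% to 13.8%. For the other settings below no share of all genes was computed, so their counts of members describe the settings and are not results about the members. The count lower in tumour spots was also 4 when tumour spots needed no neighbour or when spots of all classes were compared. Near against far, 1 member was higher when near spots lay at 150 to 250 µm or when a 2-fold difference was asked, and 1 was lower at 150 to 250 µm or in near spots without tumour-defining counts. In 3 combinations with the trimmed total, chosen after seeing the data (the largest tumour group alone, near spots without tumour-defining counts, near up to 150 µm), 1 member was higher, Lgals3 in each case, and with the largest group the median log2 ratio was -0.94 against -0.26. This median ran from -0.94 to 0.37 over all alternatives, so its sign depends on the choices made. Far against control, 0 members were higher and 2 lower (Krt7 and Krt18) when airway spots were set by club markers or far meant over 1000 µm, 2 were lower with means of per-spot levels, and 0 were higher and 0 lower at 2-fold. The cause of these moves was not tested, apart from the trimmed total, where the total itself changes, and the 2-fold setting, which asks for more. The near to far ratio ran from 1.80 to 2.95 for Lgals3, 1.14 to 1.97 for Krt18, 1.05 to 2.51 for Cdkn1a, 0.756 to 1.43 for Krt8, 0.276 to 0.819 for Krt7 and 0.0831 to 0.384 for Krt19.

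No paired analysis was possible because each condition is 1 section, and no group has a replicate to leave out. Depth limits Cldn4, Sfn and Sprr1a most, with 1, 2 and 1 counts in near spots. Spot classes rest on few marker genes, the tumour on 1 large group at the tissue edge, and the share of tumour-spot RNA on sparse counts.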
